A study of Mus musculus with 15 samples.

Results

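The cytosolic ribosomal protein genes encode the proteins of the cytoplasmic ribosome, and they were chosen by name and count among protein-coding mouse genes. The symbol had to be Rplp0, Rplp1, Rplp2 or Rpsa, or to consist of Rpl or Rps and a number. After that number only an optional letter (a, l, x or y) and an optional digit were allowed. Longer endings, as in Rpl36al, were therefore outside the rule. The count minimum was a total of 1000 across all libraries. Of the 57186 genes in the count table, 84 had such a name and 80 passed the count minimum, 48 of the large subunit and 32 of the small subunit. The other 4 were Rpl3l with 136 counts, Rpl39l with 13 counts, and Rpl10l and Rps4l, each with 0 counts in every library. Next to the minimum stood Rpl3l on the outside and Rpl22l1, with 25472 counts, on the inside. All 80 genes had counts in every library, and all 80 passed the filter on low counts.

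A ribosome joins a small subunit, which reads the messenger RNA, to a large subunit, which forms the peptide bonds, and each subunit carries 1 copy of most of its proteins. The genes lie apart from each other in the genome and are known for being transcribed in concert, and most of their messages begin with a 5′ terminal oligopyrimidine tract, through which mTORC1 and the RNA-binding protein Larp1 govern their translation. Unassembled Rpl5 and Rpl11, together with 5S ribosomal RNA, are known to bind the p53 regulator Mdm2 when ribosome assembly is disturbed. The messages are short and abundant in growing cells, macrophage lines included.

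RNA was sequenced from RAW 264.7, an established mouse macrophage line grown in RPMI with 10% serum, in 5 groups of 3 libraries collected 6 h after treatment. SNP100-treated cells received 50 µg/mL of nonporous Stöber silica nanoparticles of 100 nm nominal diameter, and SNP50-treated cells 25 µg/mL of nonporous particles of 50 nm. MSNP-treated cells received 200 µg/mL of mesoporous particles of 100 nm, HMSNP-treated cells 200 µg/mL of hollow mesoporous particles of 100 nm, and nontreated controls no particles. The doses were the highest nontoxic ones of each particle, so that particle and dose cannot be told apart except between MSNP and HMSNP. The library names of each group carry a number of their own, and whatever that number stands for cannot be told apart from the treatment. The 3 libraries of a group are numbered, with no word on whether they came from separate cultures, so p-values here measure the spread between these libraries, which may be technical.

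Total counts ranged from 29369934 to 42617812 per library, and a single ribosomal protein gene had between 1207 and 119686 counts in a library. Of 10 macrophage markers 9 were above 1 CPM (counts scaled to library size) in every library, and the summed markers of fibroblasts, epithelium, T cells, B cells and erythroid cells were at most 0.379 CPM. Control replicate 3 stood apart from every other library in the genes described here, as its values below show, so counts over the 80 genes against controls are given with and without it, and fitted values with the libraries they rest on. SNP50 replicate 1 stood apart from the other SNP50 libraries in the same direction and to a smaller extent. Since CPM are shares of a library, they do not show whether the RNA content of a cell changed, nor whether fewer cells or less RNA per cell lies behind a value.

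The start regions of these genes are shown first, because the oligopyrimidine tract is their best known shared feature. RefSeq promoters of 300 bases (GRCm38.p6, 250 before and 50 after the RefSeq start, 1 per gene) were found for 60 of the 80 genes. The pyrimidine run CTTTCC, searched on the reading strand only, was present in 21 of the 60 promoters (35%) and in 14.05% of all 27025 promoters. Within 30 bases of the start it was present in 9 of the 60 (15%), against 2.853% of all promoters. The ETS core CCGGAAG, searched on both strands, was present in 24 of the 60 (40%), against 9.121% of all, and the YY1 core AAGATGG, also on both strands, in 9 of the 60 (15%), against 6.475% of all. The run ends and the ETS core begins with CC, so that hits can overlap, and 0 of the 60 promoters held such an overlap.
Of the 78 mitochondrial ribosomal protein genes, 69 had a promoter in the table, and 17.39% of those held CTTTCC, 36.23% CCGGAAG and 18.84% AAGATGG. Of 48 promoters of respiratory chain subunits, 22.92% held CTTTCC, 18.75% CCGGAAG and 18.75% AAGATGG. The differences between these groups and the 60 were not tested. These matches are letters in a window and not measured sites. The following windows of 30 bases (GRCm38.p6, 5′ to 3′, reading strand) belong to members described below, with CTTTCC in capitals in the first 4 and no such run within 30 bases of the start in the last 4, for which the bases around the RefSeq start are given.
Rpl13a, chr7:45128719-45128748, minus strand: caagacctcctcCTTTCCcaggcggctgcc
Rpl15, chr14:18270965-18270994, minus strand: aaagccttcttcCTTTCCtctggcggcagc
Rpl18, chr7:45718062-45718091, plus strand: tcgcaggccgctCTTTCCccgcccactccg
Rps27, chr3:90213630-90213659, minus strand: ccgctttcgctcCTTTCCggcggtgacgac
Rps27l, chr9:66946076-66946105, plus strand: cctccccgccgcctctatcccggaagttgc
Rpl22l1, chr3:28805498-28805527, plus strand: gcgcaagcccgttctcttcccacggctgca
Rps18, chr17:33955646-33955675, minus strand: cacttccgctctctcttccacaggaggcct
Rpl7l1, chr17:46782637-46782666, minus strand: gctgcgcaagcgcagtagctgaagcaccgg
The 21 genes with the run and the 39 without it had nearly the same median log2 fold change in each comparison. Between the MSNP- and SNP100-treated groups, without Control replicate 3, the medians were -0.23 and -0.26. The run is a fixed spelling found anywhere in the 300 bases, and pyrimidine stretches spelled otherwise, as in the Rps18 window, count as absent. These medians therefore do not compare genes with and without an oligopyrimidine tract.

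The 80 genes together took 4.49%, 4.19% and 7.18% of the counts of control replicates 1, 2 and 3. Their share was 4.75%, 4.71% and 4.90% in the SNP100-treated libraries and 5.85%, 5.12% and 5.09% in the SNP50-treated libraries. It was 3.90%, 3.81% and 3.96% in the MSNP-treated libraries and 4.04%, 3.95% and 3.96% in the HMSNP-treated libraries. Every MSNP and HMSNP library was therefore below every other library, every SNP50 library was above every SNP100 library, and Control replicate 3 was above all. The 95% Wilson interval of each share was at most 0.008 percentage points to either side and covers counting error only. The group means were 5.29% ± 1.65 (SD, n = 3) for the controls, 4.79% ± 0.102 for SNP100, 5.35% ± 0.431 for SNP50, 3.89% ± 0.0725 for MSNP and 3.98% ± 0.0463 for HMSNP. The mean of control replicates 1 and 2 was 4.34%. The spread of the controls thus exceeded every difference between a treated mean and the control mean.

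**Figure D1:**
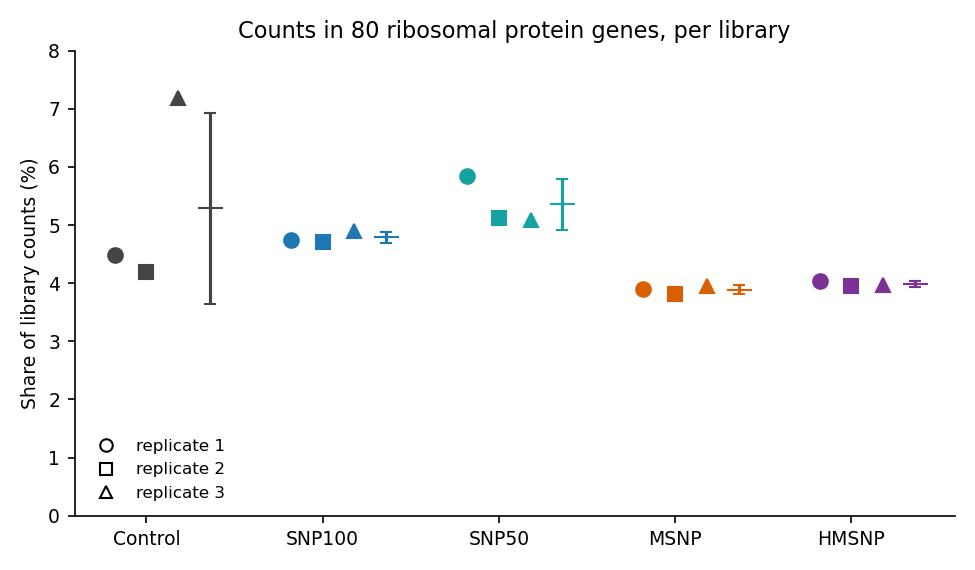
Share of library counts (%) taken by the 80 cytosolic ribosomal protein genes in each of 15 libraries, by group, with symbols for replicates and, to their right, the group mean ± SD (n = 3). Control replicate 3 lies at 7.18%, the MSNP and HMSNP libraries between 3.81% and 4.04%.

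Relative to the mean of control replicates 1 and 2, the 80 genes had a median log2 difference of 0.82 in Control replicate 3. The difference was largest in Rpl41, the shortest of the genes with 138 coding bases, at 1.10, and was 1.09 in Rpl24, while Rpl4, with 1257 coding bases, had 0.36 and Rpl7l1 had 0.19. By coding length, the median was 0.92 in the 27 shortest genes (138 to 408 bases), 0.84 in the 26 of middle length (411 to 576 bases) and 0.74 in the 27 longest (582 to 1257 bases). Other groups of short, abundant messages were high in the same library. The median was 0.86 for 75 nuclear-encoded respiratory chain subunits, 0.66 for 78 mitochondrial ribosomal proteins, 0.31 for 39 translation factors and 0.01 for all tested genes. In SNP50 replicate 1 the 80 genes stood at 0.44, against 0.25 and 0.22 in SNP50 replicates 2 and 3, and the respiratory chain subunits at 0.45, against 0.28 and 0.24. A fit with an offset for coding length, estimated per library over genes with a coding sequence, is given beside the results below. It tested 13142 genes, or 13069 without Control replicate 3, and its backgrounds rest on that smaller set.

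**Figure D2:**
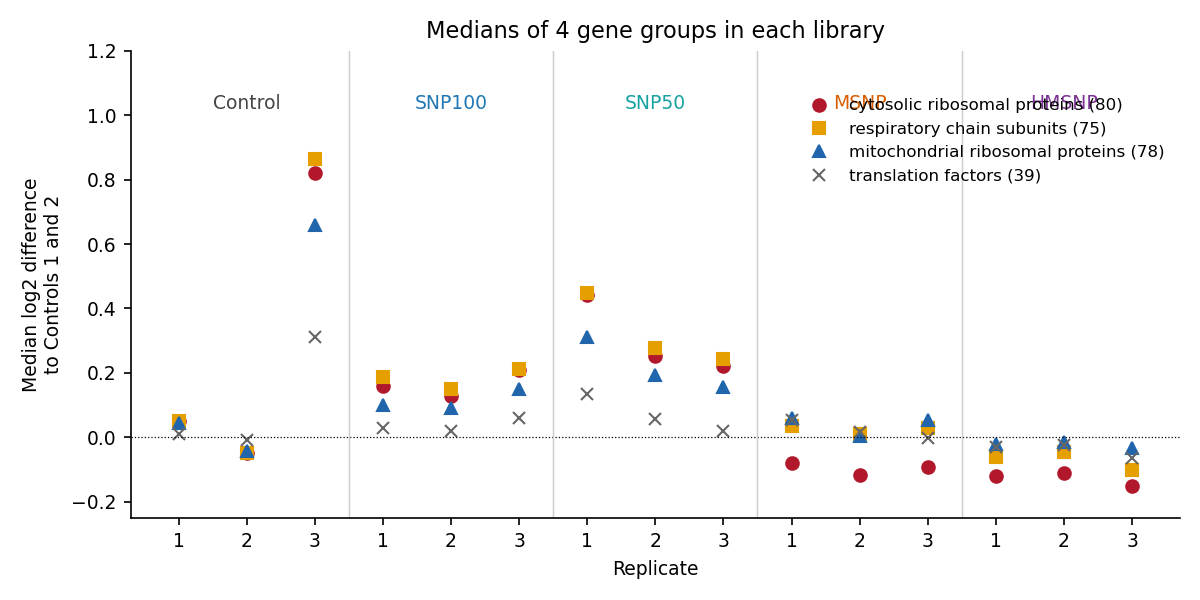
Median log2 difference to the mean of control replicates 1 and 2 (y axis) in each library, for the cytosolic ribosomal proteins and 3 other gene groups. In Control replicate 3 the cytosolic ribosomal proteins stand at 0.82 and the respiratory chain subunits at 0.86, whereas in the MSNP libraries the cytosolic ribosomal proteins lie between -0.12 and -0.08, with the 3 other groups close to 0.

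The comparison of mesoporous with nonporous particles of the same nominal diameter, MSNP against SNP100, uses no control library for its means. Ribosomal protein messages were lower in the MSNP-treated group almost throughout: the fitted log2 fold change was below 0 in 80 of 80 genes, with a median of -0.26 with all libraries and -0.24 without Control replicate 3, against -0.03 and -0.02 over all tested genes. Every MSNP library was below every SNP100 library in 77 of the 80 genes, against 22.7% of all tested genes, the exceptions being Rpl4, Rpl29 and Rpl7l1. With all 15 libraries in the fit, edgeR's quasi-likelihood test called 0 of the 80 in either direction (10.4% of all genes were called higher and 7.53% lower). The unadjusted p was under 0.05 in 8, and 0 were called by DESeq2. Without Control replicate 3, whose spread enters the shared estimate, 72 of 80 were called lower and 0 higher (background 14.8% and 18.2%). With only the 6 libraries of these groups, 75 were called lower (background 19%). With the coding length offset and without Control replicate 3, 72 were called lower (background 23.3%), with a median of -0.17. Among the mitochondrial ribosomal proteins the median under that offset was -0.04, with 9 of 78 called higher (background 25%) and 14 lower. Among the respiratory chain subunits it was -0.07, with 3 of 75 higher and 33 lower. Without the offset, and without Control replicate 3, 15 of 78 mitochondrial ribosomal proteins were called lower and 7 higher, with a median of -0.07. In that fit 39 of 75 respiratory chain subunits were called lower and 4 higher (background 14.8% and 18.2%), with a median of -0.16.

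Within the 80 genes, the medians of the short and middle genes were lower than that of the long ones, though the shortest gene of all, Rpl41, was near the overall median. Without Control replicate 3 the median log2 fold change was -0.28 in the 27 shortest, -0.26 in the 26 of middle length and -0.17 in the 27 longest, of which 27, 25 and 20 were called lower. Rpl36, a small protein of the large subunit, had the most negative value. Its levels were 337, 332 and 375 CPM in the SNP100 libraries and 253, 239 and 258 in the MSNP libraries, all MSNP values being below all SNP100 values, and its log2 fold change was -0.48 ± 0.18 (SE, adjusted p = 0.093) with all libraries and -0.47 ± 0.06 (SE, adjusted p = 1.2e-05) without Control replicate 3. With the length offset it was -0.33 ± 0.04 (SE, adjusted p = 2e-06). Rps21 and Rps12, proteins of the small subunit, followed with -0.41 ± 0.06 (SE, adjusted p = 3.9e-05) and -0.41 ± 0.07 (SE, adjusted p = 0.00016). Rps27, a zinc-finger protein of the small subunit, gave -0.40 ± 0.05 (SE, adjusted p = 8.8e-06). The large-subunit protein Rpl17 gave -0.33 ± 0.04 (SE, adjusted p = 1.3e-05). The genes not called were Rps2, Rps3a1, Rpl8, Rpl4, Rpl29, Rpl6, Rpl7 and Rpl7l1.

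**Figure D3:**
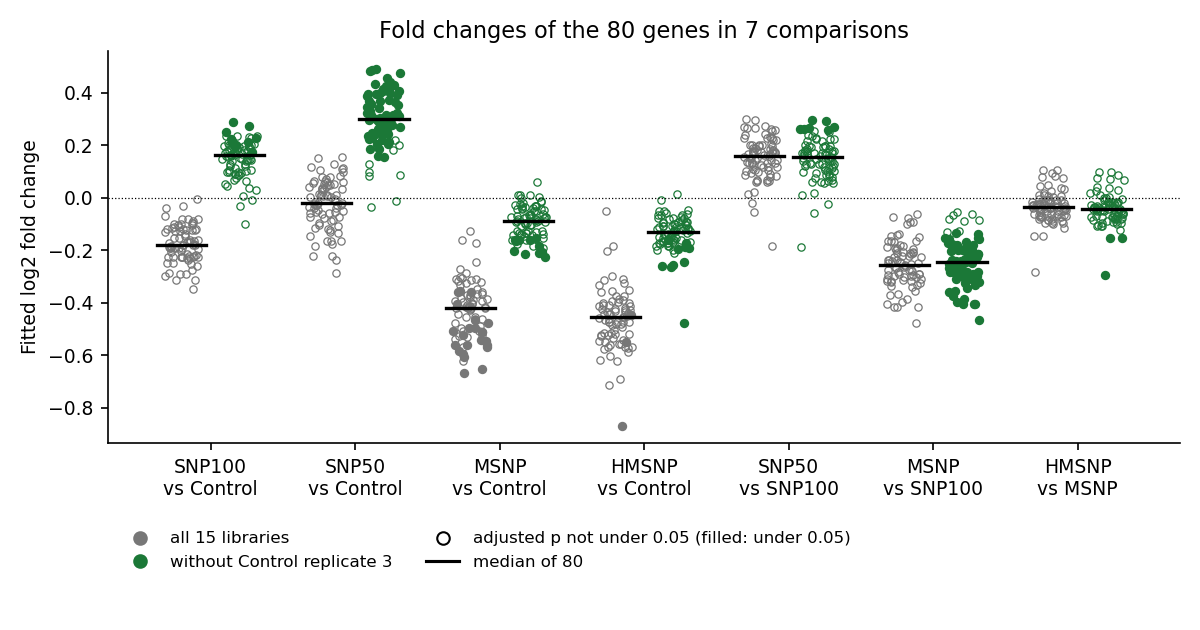
Fitted log2 fold change (y axis) of each of the 80 genes in 7 comparisons, with all 15 libraries (grey) and without Control replicate 3 (green), where filled points have an adjusted p under 0.05 and the bar is the median. Leaving out 1 control library moves the medians against controls upwards, from -0.18 to 0.16 for SNP100, for example, whereas the MSNP against SNP100 median stays at -0.26 and -0.24.

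**Figure D4:**
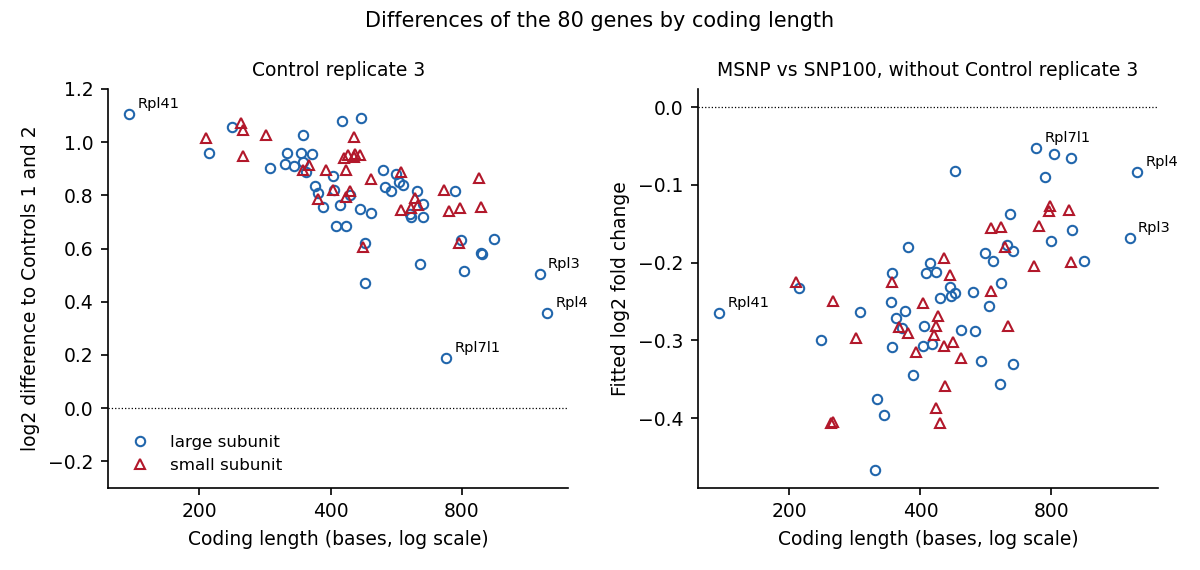
Differences of the 80 genes against coding length (x axis, bases, log scale), in Control replicate 3 (left, log2 difference to control replicates 1 and 2) and between MSNP and SNP100 without Control replicate 3 (right, fitted log2 fold change). The left-hand medians are 0.92, 0.84 and 0.74 and the right-hand ones -0.28, -0.26 and -0.17 for the short, middle and long genes.

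Against the nontreated controls, the MSNP-treated group had lower ribosomal protein messages, by an amount that depended on Control replicate 3. With all libraries 23 of 80 genes were called lower and 0 higher (background 11% and 11.8%), with a median of -0.42, a difference of -25.2%, against -0.05 over all genes. Without that library 11 were called lower and 0 higher (background 13.2% and 16.3%), with a median of -0.09, a difference of -6.02%. A share of 11 in 80 is close to the background. With the coding length offset and without Control replicate 3, 47 were called lower (background 22.6%), with a median of -0.12. DESeq2 on all libraries called 40 lower (background 11.7%). Fitted on the 6 libraries of these groups alone, edgeR called 0 (background 5.61%), with 4 at an unadjusted p under 0.05. Every MSNP library was below every control in 49 of the 80 (background 16.2%). The other 2 controls also decided the count: 60 genes were called lower without Control replicate 1 (background 10.8%) and 77 without Control replicate 2 (background 16.8%), and 1, 0 and 3 without MSNP replicates 1, 2 and 3. Over all tested genes, 1505 of 19669, 1498 of 19648 and 1727 of 19639 were called lower without those MSNP replicates.

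The 4 smallest p-values in that comparison belonged to Rpl17, Rpl7, Rpl13a and Rpl3, all of the large subunit. Rpl7, which supports the assembly of the large subunit, had 958, 958 and 1369 CPM in the controls and 863, 848 and 847 in the MSNP libraries, which lay below all 3 controls. Its log2 fold change was -0.36 ± 0.11 (SE, adjusted p = 0.023) and -0.16 ± 0.04 (SE, adjusted p = 0.0071) without Control replicate 3. Rpl17, at the peptide exit tunnel, had 585, 547 and 994 CPM in the controls and 493, 463 and 486 in the MSNP libraries, and fold changes of -0.56 ± 0.16 (SE, adjusted p = 0.018) and -0.23 ± 0.05 (SE, adjusted p = 0.0016). Both genes were called under either set of libraries. At the ends of the range stood Rps21 with -0.67 ± 0.21 (SE, adjusted p = 0.031) and Rpl4, a protein lining the exit tunnel, with -0.13 ± 0.08 (SE, adjusted p = 0.31). These values were -0.21 and 0.01 without Control replicate 3.

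In the HMSNP-treated group, 3 of 80 genes were called lower and 0 higher against controls with all libraries (background 2.7% and 2.46%), with a median of -0.46, a difference of -27.1%, and 78 of 80 had an unadjusted p under 0.05. Leaving out Control replicate 3 gave 10 lower and 0 higher (background 4.2% and 4.47%), with a median of -0.13, a difference of -8.58%. The coding length offset without that library gave 34 lower (background 9.12%) and a median of -0.10. DESeq2 called 39 lower with all libraries (background 5.16%). On the 6 libraries of these groups alone edgeR called 0 (background 0.342%), with 6 at an unadjusted p under 0.05. Every HMSNP library was below every control in 68 of the 80 (background 12%). Without Control replicate 1 there were 25 called lower (background 3.29%), without Control replicate 2 there were 78 (background 11.9%), and without any one of the HMSNP libraries 0. Over all tested genes, 255 of 19643, 281 of 19659 and 317 of 19592 were called lower without HMSNP replicates 1, 2 and 3. The 10 genes called without Control replicate 3 were Rpl22l1, Rpl13a, Rps21, Rpl3, Rpl39, Rps3, Rpl9, Rps9, Rpl5 and Rpl7, and the first 4 of them by fold change ranged from -0.48 to -0.26.

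Both nonporous particles had medians above 0 against controls once Control replicate 3 was left out, the opposite direction to the mesoporous particles. For SNP50 against controls, 0 of 80 were called in either direction with all libraries (background 0.454% higher and 0.958% lower), with 0 at an unadjusted p under 0.05, 0 by DESeq2 and a median of -0.02. When Control replicate 3 was left out, 71 were called higher and 0 lower (background 9.63% and 9.3%), with a median of 0.30, a difference of 23.2%. The coding length offset left 53 higher (background 13.4%) and a median of 0.15. With no offset, leaving out SNP50 replicate 1 as well as Control replicate 3 gave 65 higher (background 7.2%) and a median of 0.23. In the fit without Control replicate 3 alone and with no offset, the genes not called higher were Rpl7, Rpl7l1, Rpl26, Rpl30, Rpl5, Rps4x, Rpl35a, Rpl39 and Rpl29. That fit also called 62 of 75 respiratory chain subunits and 52 of 78 mitochondrial ribosomal proteins higher and 0 lower, with medians of 0.32 and 0.22. Under the coding length offset 37 and 32 of them were called higher and 1 and 2 lower, with medians of 0.11 and 0.11.

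For SNP100 against controls, 0 of 80 were called with all libraries (background 0.509% higher and 0.403% lower), with 1 at an unadjusted p under 0.05, 0 by DESeq2 and a median of -0.18. Once Control replicate 3 was left out, 11 were called higher and 0 lower (background 2.84% and 2.32%), with a median of 0.16, a difference of 11.8%. Among them were Rpl11, Rpl13a, Rpl15, Rpl23, Rpl27, Rpl30, Rpl36, Rpl36a, Rps25 and Rps28. With the coding length offset as well, 3 were called higher and 1 lower (background 5% and 5.63%), with a median of 0.07. Both of these counts were under the shares of all genes. Without the offset, 19 of 75 respiratory chain subunits and 13 of 78 mitochondrial ribosomal proteins were called higher and 0 lower, with medians of 0.18 and 0.11. Under the offset 7 in each group were called higher and 0 lower, with medians of 0.08 and 0.05. With no offset, leaving out SNP50 replicate 1 as well as Control replicate 3 gave 41 of the 80 higher (background 4.12%). SNP50 replicate 1 belongs to neither group of this comparison and enters it through steps that all libraries share, the spread, the scaling and the low-count filter. Rpl23, of the large subunit, had 740.3, 734 and 1253 CPM in the controls and 849, 835 and 863 with SNP100, above control replicates 1 and 2 and below control replicate 3. Its log2 fold change was -0.10 ± 0.15 (SE, adjusted p = 0.83) on all libraries and 0.20 ± 0.05 (SE, adjusted p = 0.02) without Control replicate 3.

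The direct comparison of the nonporous sizes, SNP50 against SNP100, had a median of 0.16 with and without Control replicate 3, and with all libraries 77 of 80 genes were above 0. Every SNP50 library was above every SNP100 library in 43 of the 80 (background 11.6%). With all libraries 0 were called in either direction (background 0% and 0%), with 0 at an unadjusted p under 0.05 and 0 by DESeq2. Without Control replicate 3, 7 were called higher and 0 lower (background 0.286% and 0.148%), among them Rps14, Rps18, Rps23, Rpl27, Rpl13a and Rpl18. The coding length offset gave 21 higher (background 2.51%) and 1 lower, beside 353 lower of all 13069 genes, and a median of 0.09. With no offset and without both Control replicate 3 and SNP50 replicate 1, 0 were called (background 0%) and the median was 0.09. The 7 calls were thus lost without SNP50 replicate 1. Rps18, at the head of the small subunit, had 419.6, 435 and 453 CPM with SNP100 and 593, 512 and 501 with SNP50, and 0.29 ± 0.05 (SE, adjusted p = 0.033) without Control replicate 3. Rpl30 went the other way, with 176, 155 and 164 CPM with SNP100 and 162, 142 and 132 with SNP50, values that overlap. Without Control replicate 3 it had -0.19 ± 0.06 (SE, adjusted p = 0.14). With the coding length offset as well, it was the 1 gene called lower, at -0.28 ± 0.05 (SE, adjusted p = 0.014).

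Hollow mesoporous (HMSNP) and mesoporous (MSNP) particles, given at the same dose of 200 µg/mL, differed little in these genes. The median log2 fold change of HMSNP against MSNP was -0.03 with all libraries and -0.04 without Control replicate 3. With all libraries 0 of 80 were called (background 9.22% higher and 11% lower), with 0 at an unadjusted p under 0.05 and 0 by DESeq2, and without Control replicate 3 there were 0 higher and 3 lower (background 15.5% and 18.4%). Every HMSNP library was below every MSNP library in 26 of 80, near the background of 23.7%. The 3 genes were Rpl22l1 with -0.29 ± 0.07 (SE, adjusted p = 0.0048), Rpl23 with -0.15 ± 0.04 (SE, adjusted p = 0.0087), and Rps3, a protein of the messenger entry with a second role in DNA repair, with -0.15 ± 0.05 (SE, adjusted p = 0.019). Rpl23 had 754, 711 and 734 CPM with MSNP and 672, 669 and 649 with HMSNP.

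Rpl22l1 (chr3:28859585-28861573, plus strand, GRCm39; ENSMUSG00000039221), the paralog that can take the place of Rpl22 in the large subunit, had the lowest mean level of the 80 and, with all libraries, the largest difference of any of them against controls. Its levels were 49.4, 44.0 and 90.4 CPM in the controls, 52.7, 50.4 and 47.3 with SNP100 and 62.3, 49.0 and 55.0 with SNP50. They were 42.2, 38.5 and 41.9 CPM with MSNP and 35.5, 32.9 and 32.4 with HMSNP. Every HMSNP library was below each of the other 12 libraries. HMSNP against controls gave -0.87 ± 0.20 (SE, adjusted p = 0.018) with all libraries, -0.48 ± 0.08 (SE, adjusted p = 0.00095) without Control replicate 3 and -0.44 ± 0.07 (SE, adjusted p = 0.00011) when the length offset was added. Rpl22 itself (chr4:152410150-152418540, plus strand; ENSMUSG00000028936) had 299.6, 285 and 494 CPM in the controls and 268, 260.2 and 257 with HMSNP, and -0.16 ± 0.06 (SE, adjusted p = 0.13) without Control replicate 3. The 2 paralogs were not compared by a test of the difference between them. Leaving out Control replicate 3, Rps18 in SNP50 against controls, at 0.49, was farther from 0 than any value of Rpl22l1.

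**Figure D5:**
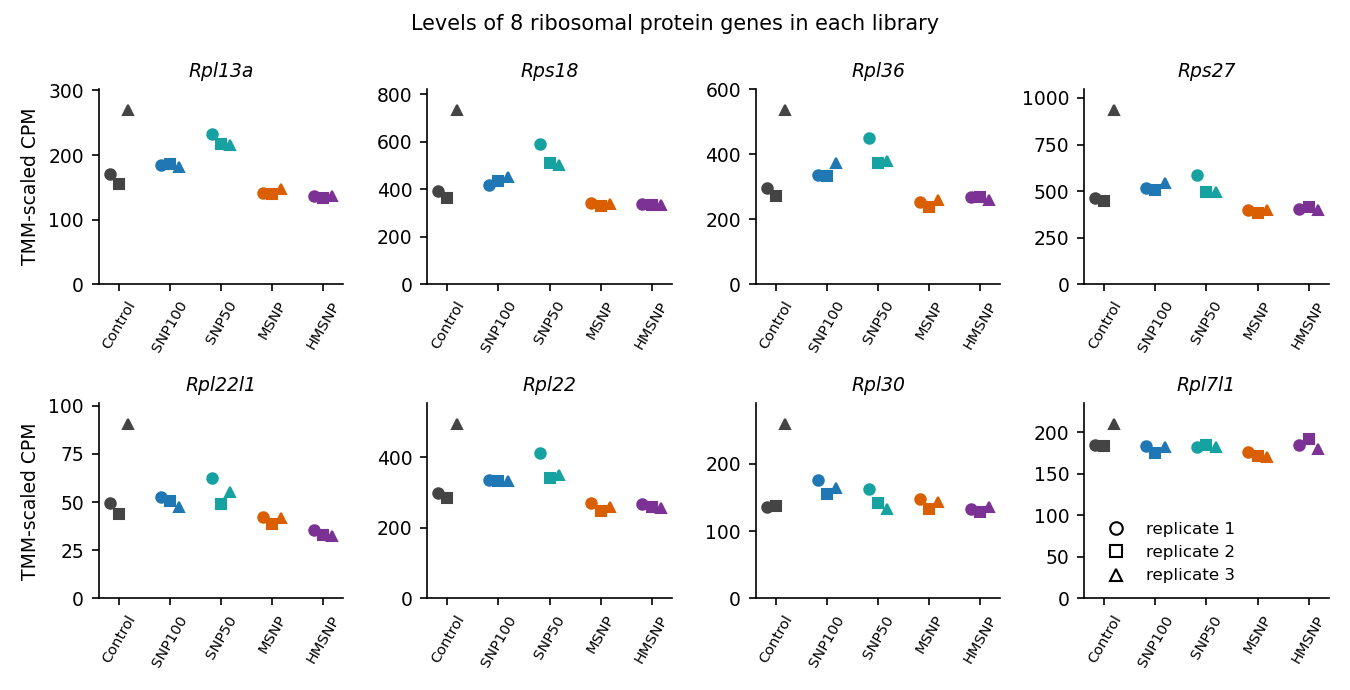
TMM-scaled CPM (y axis, from 0) of 8 ribosomal protein genes in each library, by group, with symbols for replicates. Control replicate 3 is the highest library in all 8 panels, the HMSNP libraries are the lowest in Rpl22l1 (35.5, 32.9 and 32.4 CPM), and Rpl7l1 lies between 170.5 and 210.0 CPM throughout.

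Rpl13a (chr7:44774982-44778263, minus strand, GRCm39; ENSMUSG00000074129) is a large-subunit protein known in myeloid cells for leaving the ribosome as part of the GAIT complex, which silences inflammatory messages. Its levels were 171, 155 and 269.9 CPM in the controls, 184, 187 and 181 with SNP100 and 232, 216 and 215 with SNP50. They were 141, 140.2 and 147 CPM with MSNP and 137, 133 and 137 with HMSNP. The 6 libraries of the mesoporous particles were thus below all controls, and the 6 of the nonporous particles above control replicates 1 and 2. Without Control replicate 3 the log2 fold changes were 0.17 for SNP100, 0.43 for SNP50, -0.18 for MSNP and -0.27 for HMSNP, with adjusted p-values of 0.047, 2.9e-05, 0.0065 and 0.0014. With all libraries only the MSNP and HMSNP values were called, at -0.48 ± 0.14 (SE, adjusted p = 0.026) and -0.55 ± 0.14 (SE, adjusted p = 0.04). Between MSNP and SNP100 it gave -0.36 ± 0.04 (SE, adjusted p = 3.1e-06) without Control replicate 3 and -0.33 ± 0.04 (SE, adjusted p = 2.8e-07) with the length offset.

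Rpl3, which lies next to the peptidyl transferase centre, had 742, 711 and 1029.9 CPM in the controls and 600.0, 609 and 615 with HMSNP. The values with MSNP were 649.9, 618 and 669.9, and all 6 mesoporous libraries were below every other library. It was called lower against controls in both groups under either set of libraries, with -0.44 ± 0.11 (SE, adjusted p = 0.03) and -0.26 ± 0.05 (SE, adjusted p = 0.0027) for HMSNP. Its heart and muscle paralog Rpl3l was below the count minimum. Reads of Rpl3 can be shared with 2 annotated processed pseudogenes, which held 16.4% as many counts as the gene.

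Rpl7l1 (chr17:47084824-47093606, minus strand, GRCm39; ENSMUSG00000063888), the paralog of Rpl7 that is thought to act in ribosome assembly, varied least. It had 185, 184 and 210.0 CPM in the controls, 184, 176 and 182 with SNP100 and 183, 185 and 182 with SNP50. With MSNP it had 176, 172 and 170.5 CPM and with HMSNP 186, 193 and 181. It was not called in any of the 7 comparisons with all libraries or without Control replicate 3, and its values without that library ran from -0.09 for MSNP against controls to 0.10 for HMSNP against MSNP. With the length offset as well, it was called lower in MSNP against controls, at -0.14 ± 0.04 (SE, adjusted p = 0.0055), and higher in HMSNP against MSNP, at 0.16 ± 0.03 (SE, adjusted p = 0.00065).

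The stalk that recruits translation factors to the large subunit is built on Rplp0 and carries Rplp1 and Rplp2. Rplp0 had 970.3, 934 and 1481 CPM in the controls, 858, 861 and 835 with MSNP and 894, 889 and 855 with HMSNP, the 6 mesoporous values being below all controls. It was called lower in MSNP under either set of libraries, at -0.41 ± 0.13 (SE, adjusted p = 0.031) and -0.15 ± 0.04 (SE, adjusted p = 0.013). Rplp1 and Rplp2 were not called there (-0.45 and -0.51 with all libraries, -0.05 and -0.07 without Control replicate 3). In SNP50 without Control replicate 3 all 3 were called higher, with log2 fold changes of 0.22, 0.40 and 0.39.

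Rpl5 and Rpl11 form the 5S particle. Rpl5 had 778, 761 and 1149.8 CPM in the controls, 892, 784 and 802 with SNP50 and 685, 694 and 673 with HMSNP. Rpl11 had 598, 565 and 1036 CPM in the controls, 861, 746 and 714 with SNP50 and 546, 543 and 526 with HMSNP. Rpl11 was called higher in SNP50 without Control replicate 3, at 0.41 ± 0.06 (SE, adjusted p = 0.00023), while Rpl5 had 0.10 ± 0.05 (SE, adjusted p = 0.18). In HMSNP Rpl5 was called lower, at -0.17 ± 0.05 (SE, adjusted p = 0.031), while Rpl11 had -0.11 ± 0.06 (SE, adjusted p = 0.3). Whether the 2 genes differed from each other was not tested. Between MSNP and SNP100 both were called lower without Control replicate 3, at -0.16 and -0.29, and neither with all libraries (-0.17 and -0.30).

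On the small subunit, Rps6, the substrate of the S6 kinases, had 612, 588 and 1004 CPM in the controls and 595, 578 and 579 with MSNP. Its MSNP against SNP100 value was -0.15 ± 0.05 (SE, adjusted p = 0.026) without Control replicate 3, and against controls it was not called in MSNP or HMSNP. Rpsa, a protein of the 40S subunit also known as a laminin receptor, gave -0.20 ± 0.05 (SE, adjusted p = 0.0029) in the same comparison and fit. Rps3 gave -0.20 ± 0.05 (SE, adjusted p = 0.0026), and Rps27a, made as a fusion with ubiquitin, gave -0.22 ± 0.05 (SE, adjusted p = 0.003). The X-linked genes Rps4x and Rpl10, of the small and the large subunit, gave -0.13 ± 0.05 (SE, adjusted p = 0.037) and -0.14 ± 0.04 (SE, adjusted p = 0.019). These 6 calls against SNP100 were not made with all libraries, where the values were -0.16, -0.21, -0.22, -0.23, -0.14 and -0.15 in the order given. Against controls without Control replicate 3, SNP50 had positive fitted values in all 6, and all but Rps4x were called higher (0.28, 0.27, 0.36, 0.22 and 0.20 for Rps6, Rpsa, Rps3, Rps27a and Rpl10, against 0.13 for Rps4x).

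The paralogs Rps27 and Rps27l, the second a p53 target, can be set beside each other in every group. Rps27 had 462, 445 and 936 CPM in the controls, 519, 505 and 541 with SNP100 and 397, 379.7 and 397 with MSNP. Rps27l had 128, 115 and 234 CPM in the controls, 140.0, 135 and 132 with SNP100 and 115, 110.0 and 116 with MSNP. In both genes the MSNP libraries were below the SNP100 libraries without overlap. Rps27 was called lower in MSNP against controls, at -0.65 ± 0.20 (SE, adjusted p = 0.03) with all libraries and -0.20 ± 0.06 (SE, adjusted p = 0.013) without Control replicate 3. Rps27l had -0.49 ± 0.18 (SE, adjusted p = 0.072) and -0.09 ± 0.06 (SE, adjusted p = 0.29). Rpl39, whose testis paralog Rpl39l was below the count minimum, had 239, 231 and 489 CPM in the controls and 201, 207 and 186 with HMSNP, and was called lower in HMSNP without Control replicate 3, at -0.25 ± 0.07 (SE, adjusted p = 0.037).

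Levels were compared between genes only per coding length. The median over the 80 genes was 1181 CPM per kilobase of coding sequence, and 67 of the 80 lay within 2-fold of it. Rpl41, which encodes a peptide of the large subunit, had the highest level per length, 3853 CPM per coding kilobase. It was followed by Rplp1 with 3126, Rpsa with 2253 and Rps27 with 1952. At the lower end stood Rpl22l1 with 133, Rpl29 with 145, Rpl26 with 187 and Rpl7l1 with 248. Rpl41 had 505, 450.0 and 1024 CPM in the controls. For SNP100 its log2 fold change was -0.35 ± 0.22 (SE, adjusted p = 0.63) with all libraries and 0.12 ± 0.10 (SE, adjusted p = 0.59) without Control replicate 3. The untranslated parts of the messages add to the counts, so these levels are not molar amounts.

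Some of the 80 genes have close copies or neighbours. A processed pseudogene is named for 63 of them, and for 4, Rps18, Rpl3, Rpl38 and Rps10, the named pseudogenes held over 5% of the gene's own counts, 29.3% for Rps18. Another annotated gene overlaps 56 of the 80, and for 8 (Rpl10, Rpl28, Rpl35, Rpl35a, Rpl36, Rpl36a, Rps18 and Rps20) such a gene held over 10% as many counts. The libraries were directional, but whether the counting used strand is not given in the sources used here, so reads of genes on opposite strands may be mixed in these genes. Of the 168 processed pseudogenes of ribosomal proteins that passed the low-count filter, 13 were called lower and 0 higher in MSNP against controls with all libraries, and 1 lower and 0 higher without Control replicate 3, with medians of -0.46 and -0.07. The lower share of all tested genes was 11% and 13.2%, above that of the pseudogenes in both cases.

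The name rule leaves out 4 further genes of the cytosolic ribosome. Fau, which encodes a ubiquitin-like protein fused to a small-subunit protein, had 383, 357 and 750.2 CPM in the controls, 516, 442 and 434 with SNP50 and 354, 343 and 343 with MSNP. Rack1, a scaffold on the small subunit, had 1103, 1074 and 1635 CPM in the controls, 1275, 1149 and 1163 with SNP50 and 1021, 1016 and 1008 with MSNP. All 4, Rpl36al among them, were called higher in SNP50 against controls without Control replicate 3 (background 9.63%), with a median of 0.39. In the same fit 3 of 4 were called lower in MSNP against SNP100 (background 14.8%), with a median of -0.24. With all libraries 0 of the 4 were called in either comparison, and the medians were 0.01 and -0.25.

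Other gene groups of translation and of short messages are given by their counts, with log2 fold changes for the genes named. Over all tested genes, 11.8% were called higher and 11% lower in MSNP against controls, and 16.3% and 13.2% without Control replicate 3. In HMSNP these shares were 2.46% and 2.7%, and 4.47% and 4.2%. The first value of each named gene rests on all libraries and the second, where given, on the fit without Control replicate 3. The 39 elongation and initiation factors were called in both directions. In MSNP against controls 4 were called higher and 1 lower with all libraries, near or under the shares of all genes, and 12 and 3 without Control replicate 3. Eif5, which promotes start codon recognition, rose by 0.38 (adjusted p = 0.00035), Eif4a1, the cap-bound helicase, by 0.30 (adjusted p = 0.0048) and Eif3c, a subunit of the scaffold factor eIF3, by 0.34 (adjusted p = 0.0049). In HMSNP against controls Eif2s2, a subunit of the factor that brings the initiator tRNA, had -0.54 (adjusted p = 0.026) and -0.30 (adjusted p = 0.0019). Against SNP100, 15 of the 39 were called higher and 6 lower in MSNP without Control replicate 3, with a median of 0.05.

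Of 110 ribosome biogenesis genes, 13 were called higher and 6 lower in MSNP against controls, and 26 and 9 without Control replicate 3, with medians of 0.01 and 0.06. The higher count with all libraries was at the share of all genes. The 3 genes with the smallest p-values rose: Utp15, of the small-subunit processome, by 0.63 (adjusted p = 2.1e-06), Nop14, of the same particle, by 0.52 (adjusted p = 9.2e-05), and Nolc1, a nucleolar phosphoprotein, by 0.40 (adjusted p = 0.00077). In HMSNP against controls 1 of the 110 was called in each direction without Control replicate 3.

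Of 25 genes of the mTORC1 branch and of translation control through oligopyrimidine tracts, 4 were called higher and 5 lower in MSNP against controls, and 8 and 7 without Control replicate 3. Pdcd4, an inhibitor of the helicase eIF4A, fell, with -2.53 (adjusted p = 2.6e-10), Sesn1 fell, with -0.36 (adjusted p = 0.00018), and Sesn2, a stress-induced mTORC1 inhibitor, rose by 0.95 (adjusted p = 5.5e-05). Larp1, named here for its role in binding the oligopyrimidine tract, had 329.6, 356 and 306 CPM in the controls and 333, 359 and 336 with MSNP, values that overlap. In HMSNP 0 were called higher and 4 lower, and 0 and 6 without Control replicate 3, among them Ddit4, an mTORC1 inhibitor, with -1.49 (adjusted p = 1.2e-07), which had 11.7, 12.5 and 11.8 CPM in the controls and 4.41, 4.14 and 4.26 with HMSNP. Sesn1 had -0.48 (adjusted p = 0.00013) and Pdcd4 -0.68 (adjusted p = 0.00067) there.

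Of 14 genes of nucleolar stress and p53, 5 were called higher and 2 lower in MSNP against controls, and 8 and 2 without Control replicate 3. In HMSNP the counts were 4 and 1, and 6 and 2 without that library. Plk2, a p53-inducible kinase, rose by 3.67 (adjusted p = 1.9e-11) in MSNP and by 1.40 (adjusted p = 4.1e-06) in HMSNP. Cdkn1a, the cell cycle inhibitor p21, had -0.64 (adjusted p = 2.2e-05) in MSNP, with 337, 319 and 409 CPM in the controls and 223, 228 and 234 with MSNP. Ccng1, cyclin G1, rose by 0.51 (adjusted p = 0.00038) in HMSNP.

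The mitochondrial ribosomal proteins and the respiratory chain subunits were the groups most like the 80 genes in Control replicate 3. In MSNP against controls 6 of 78 mitochondrial ribosomal proteins were called lower and 1 higher with all libraries, and 3 lower and 18 higher without Control replicate 3, with medians of -0.20 and 0.04. The lower counts were under the shares of all genes given above, and the higher count without Control replicate 3 was above its share. Mrps6, a protein of the small mitochondrial subunit, fell in both mesoporous groups, with -0.65 (adjusted p = 0.0063) and -0.34 (adjusted p = 0.00025) in MSNP. In HMSNP it had -1.10 (adjusted p = 0.00065) and -0.80 (adjusted p = 7.4e-08). In MSNP Mrpl57 had -0.72 (adjusted p = 0.0078) and -0.36 (adjusted p = 0.00084), and Mrpl33 -0.83 (adjusted p = 0.0081) and -0.40 (adjusted p = 0.00073), so that Control replicate 3 moved all 3 MSNP values by over 1.5 times. Of the 75 respiratory chain subunits 8 were called lower and 1 higher in MSNP, near or under the shares of all genes, and 3 and 4 without Control replicate 3. Cox6a2, a subunit of cytochrome oxidase, was the one that rose in MSNP, with 1.39 (adjusted p = 1.3e-05), and it fell in HMSNP, with -1.28 (adjusted p = 0.00099). Cox7a2l, which joins respiratory complexes, had -0.50 (adjusted p = 0.02) and -0.21 (adjusted p = 0.0052) in MSNP. Ndufb1, of complex I, had -0.65 (adjusted p = 0.028) and -0.24 (adjusted p = 0.041).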

How the data were processed

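Poly(A) RNA of RAW 264.7 cells was sequenced from 15 directional libraries, 3 in each of 5 groups. The authors deposited 1 table of whole-number read counts per gene, made, per the submitters' processing notes, with cutadapt 1.16, STAR 2.7.9a and featureCounts 1.6.3 on GRCm39. The annotation and the strand setting of the counting are not given in the sources used here. Of the 57186 gene identifiers, 56630 matched GENCODE names and lengths.

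Counts were tested with edgeR 4.0.16 (quasi-likelihood test, TMM scaling, 1 mean per group over all 15 libraries, genes with at least 10 counts in total, 19839 genes) in R 4.3.3. P-values were adjusted by Benjamini-Hochberg over all tested genes, and adjusted p under 0.05 was called. CPM are TMM-scaled. Members and gene lists were chosen with earlier results of these data known. Genes named were the 4 smallest p-values per direction and comparison, the ends of each range, members with a named role or paralog, the highest level per length and, of other lists, the 3 called genes with the smallest p in MSNP and HMSNP. The same rule on the fit without Control replicate 3, the lists of called or uncalled members, Larp1, Fau, Rack1, Rpl24, Rpl29 and the other levels per length were added after values were seen.

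Alternatives were DESeq2 1.42.0, other scalings and filters, 6 libraries only, a replicate block, transcript length offsets (lowess, span 0.3) and leaving out each library. Coding length offsets and leaving out 2 libraries were added after seeing the data. The scripts were tested on simulated data. Total counts of 29369934 to 42617812 set the precision, and intervals cover counting error only. Some genes are not reported here by name and stay in all fits and counts.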

Additional observations from a re-analysis of the deposited data

How the results depend on the processing

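Counts of called members are given as higher or lower, with all libraries unless stated. RLE scaling and scaling without the members changed no count or median beyond its limits. DESeq2 called 40 lower in MSNP and 39 in HMSNP against controls (background 11.7% and 5.16%). Without the low-count filter 41 were lower in MSNP, 10 in HMSNP and 1 in MSNP against SNP100. Of all 26786 genes in that fit, 2081, 546 and 1424 were lower, in the same order. With 6 libraries 0 were lower in MSNP and in HMSNP (background 5.61% and 0.342%) and 75 in MSNP against SNP100 (background 19%). With 6 libraries 5 members were higher and 6 lower in HMSNP against MSNP, beside 3577 and 3565 of all 17460 genes. Same-numbered libraries did not deviate together (correlations from -0.134 to 0.122), so the replicate block is only another fit. Under it 14 members were lower in MSNP, beside 2054 of all 19839 genes.

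With the transcript length offset, 1 was lower in SNP100, 2 higher and 1 lower in SNP50, 41 lower in MSNP, 25 lower in HMSNP, 24 lower in MSNP against SNP100 (median -0.15) and 1 lower in HMSNP against MSNP (median 0.0020). SNP50 against SNP100 had a median of 0.064. Over all 19839 genes of that fit, 269 were lower in SNP100, and 340 were higher and 593 lower in SNP50. In MSNP 2833 were lower, in HMSNP 995, in MSNP against SNP100 2264 and in HMSNP against MSNP 2689. Without Control replicate 3 as well, the member counts were 3 higher and 1 lower in SNP100, 36 and 2 in SNP50, 23 lower in HMSNP (median -0.094), 7 and 1 in SNP50 against SNP100 (median 0.062), 51 lower in MSNP against SNP100 (median -0.15), and 5 and 4 in HMSNP against MSNP (median 0.0011). Over all 19611 genes, 610 were higher and 614 lower in SNP100, 1382 and 1686 in SNP50, and 79 and 112 in SNP50 against SNP100. In HMSNP 1091 were lower and in MSNP against SNP100 3302, and HMSNP against MSNP had 3634 higher and 3485 lower. With the coding length offset, 1 member was lower in SNP100, 2 higher in SNP50, 60 lower in MSNP, 38 in HMSNP and 32 in MSNP against SNP100 (median -0.17), and 1 in each direction in HMSNP against MSNP (median 0.010). Over all 13142 genes, 286 were lower in SNP100, 300 higher in SNP50, 2725 lower in MSNP and 1115 in HMSNP. In MSNP against SNP100 2131 were lower, and in HMSNP against MSNP 2424 were higher and 2585 lower. Leaving out Control replicate 3 as well gave 3 members higher and 1 lower in SNP100, 53 and 1 in SNP50, 47 lower in MSNP, 34 in HMSNP (median -0.10), 21 and 1 in SNP50 against SNP100, 72 lower in MSNP against SNP100 (median -0.17), and 5 and 3 in HMSNP against MSNP (median 0.011). Over all 13069 genes, 653 were higher and 736 lower in SNP100, 1756 and 1990 in SNP50, and 328 and 353 in SNP50 against SNP100. In MSNP 2959 were lower, in HMSNP 1192 and in MSNP against SNP100 3050, and HMSNP against MSNP had 3275 higher and 3329 lower. Leaving out Control replicate 3 and SNP50 replicate 1, with no offset, gave 41 members higher in SNP100 (median 0.16), 65 higher in SNP50, 35 lower in HMSNP, 74 lower in MSNP against SNP100, and 1 higher and 9 lower in HMSNP against MSNP. Over all 19419 genes, 800 were higher in SNP100, 1399 in SNP50, and 1009 were lower in HMSNP and 3024 in MSNP against SNP100. In HMSNP against MSNP 3179 were higher and 3759 lower.

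Leaving out each library in turn, the members called higher ranged from 0 to 11 in SNP100 (median -0.33 to 0.16), 0 to 71 in SNP50 (median -0.16 to 0.30) and 0 to 7 in SNP50 against SNP100 (median 0.09 to 0.20). Those called lower ranged from 0 to 77 in MSNP (median -0.57 to -0.09), 0 to 78 in HMSNP (median -0.58 to -0.13), 0 to 72 in MSNP against SNP100 (median -0.28 to -0.23) and 0 to 3 in HMSNP against MSNP (median -0.05 to -0.02). The highest counts arose without Control replicate 3 or, for MSNP and HMSNP against controls, without Control replicate 2. Their backgrounds are given above. The cause was not tested.

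Unchanged were 717 values: the number of members with no count minimum and values of named members that kept direction and side of the threshold. Of the values of named members, 92 passed that threshold only under the alternative, 41 no longer passed it and 35 changed sign. Over the libraries left out in turn, sign changes gave ranges in SNP100 of -0.55 to 0.12 (Rpl41), -0.23 to 0.20 (Rpl23), -0.25 to 0.29 (Rpl36) and -0.27 to 0.21 (Rpl27). In SNP50 they were -0.44 to 0.087 (Rpl30), -0.0064 to 0.47 (Rpl27) and -0.073 to 0.49 (Rps18). Rpl4 ranged from -0.19 to 0.010 in MSNP and Rpl7l1 from -0.077 to 0.013 in HMSNP. With the transcript length offset (with and without Control replicate 3), the coding length offset (likewise) and without both libraries, the values in SNP100 were 0.039, 0.10, 0.031, 0.093 and 0.20 for Rpl23, 0.080, 0.15, 0.069, 0.15 and 0.29 for Rpl36 and 0.034, 0.082, 0.021, 0.10 and 0.21 for Rpl27, and Rpl41 was 0.12 without both libraries. They were 0.14, 0.040, 0.072, 0.020 and 0.012 for Rpl7l1 in HMSNP, which in MSNP against SNP100 had 0.00076 and 0.00061 with the transcript length offset. Without both libraries Rpl30 was 0.011 in SNP50 and Rpl4 0.010 in MSNP. With no count minimum there were 82 members.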
